A study of Homo sapiens with 8 samples.

Results

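Accessible chromatin just past the ends of genes was examined in ATAC-seq data, in which the transposase Tn5 cuts and tags open DNA, from U2OS cells, a human osteosarcoma line. A downstream region was a called region whose midpoint lay 0 to 5 kb past the annotated 3' end of a protein-coding gene, outside the span of every protein-coding gene and more than 2 kb from the transcription start site (TSS) of every such gene. By this rule 38105 of the 1440417 regions in the 8 peak lists were downstream regions, and 37933 of 1435500 when an interval shared by several lists was counted once. Merging overlapping regions of all lists gave 547779 sites, of which 14131 met the same rule and were called downstream sites. The 4 groups were wild-type (WT) cells without UV (no UV), WT cells harvested 3 h after a UV-C dose of 20 J/m2 (3 h post UV), and ASH1L-/- cells under the same 2 conditions, with 2 libraries each. ASH1L, a histone methyltransferase, had been disrupted by CRISPR/Cas9 and single colonies had been isolated. The labels call the 2 libraries of a group biological replicates and the study calls them independent experiments, while whether both ASH1L-/- replicates came from 1 colony is not given in the sources used here. Genotype and any property of the chosen colony cannot be told apart. A region within 1 kb of the ASH1L TSS was in all 8 lists, which does not check the disruption, since region lists carry no sequence.

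The 3' end of a protein-coding gene is where the nascent transcript is cleaved and polyadenylated, after an AATAAA-type signal in the RNA. RNA polymerase II usually continues past that point before it is released, so the first kilobases after a gene can be transcribed without being part of the mature RNA. Open DNA there may hold enhancers, binding sites of the insulator protein CTCF or promoters of other transcripts. UV-C light causes pyrimidine dimers that block RNA polymerase II and activates stress kinases, which induce the AP-1 transcription factors (FOS and JUN family dimers) and other immediate-early genes. The comparisons by UV and by genotype address whether accessibility at gene ends differed after damage and in the absence of ASH1L.

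The sequences below are examples of sites named in the comparisons that follow, chosen because they held at least 1 of 3 short motifs, and are not the sites with the largest differences. Sites past DCAF4, NBPF4 and TRIM47 differed more, and TRIM47, FBXO27, CLPTM1L and ENC1, lower or lost after UV, held none of these motifs. Each is a stretch of the hg38 plus strand, 5′ to 3′, centred on the strongest summit of the site, and lies outside every annotated exon. Capitals mark letters of the motifs in either orientation: TGANTCA, recognised by AP-1, GGAATG, recognised by TEAD factors (the DNA-binding partners of YAP), and TGTGGTT, recognised by RUNX factors. The first 3 were more accessible after UV and were chosen among the named sites of that kind because they held TGANTCA. The DCAF4 site, also higher after UV, held GGAATG and no TGANTCA. The NBPF4 site, also higher, and the SLC35E3 and AKT2 sites, listed only after UV, held none of the 3 motifs.
SORL1 end, chr11:121635019-121635219: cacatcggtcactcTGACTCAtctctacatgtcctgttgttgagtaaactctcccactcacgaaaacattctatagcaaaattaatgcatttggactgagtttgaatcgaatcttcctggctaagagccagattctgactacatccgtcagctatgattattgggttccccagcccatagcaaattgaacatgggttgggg
CPED1 end, chr7:121302224-121302424: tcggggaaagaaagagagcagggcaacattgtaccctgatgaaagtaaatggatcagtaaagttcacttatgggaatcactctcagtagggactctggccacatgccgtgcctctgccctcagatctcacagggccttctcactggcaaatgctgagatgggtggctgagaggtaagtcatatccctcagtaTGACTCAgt
ERLIN1 end, chr10:100148803-100149003: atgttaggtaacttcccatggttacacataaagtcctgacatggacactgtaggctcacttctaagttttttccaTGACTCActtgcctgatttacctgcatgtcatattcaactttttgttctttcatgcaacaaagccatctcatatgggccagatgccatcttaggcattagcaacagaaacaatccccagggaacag
The next sequence belongs to a site listed in all 4 UV libraries and in none of the others. It held 2 TGANTCA matches, 1 of which overlapped a GGAATG match in the opposite orientation.
NIM1K end, chr5:43282017-43282217: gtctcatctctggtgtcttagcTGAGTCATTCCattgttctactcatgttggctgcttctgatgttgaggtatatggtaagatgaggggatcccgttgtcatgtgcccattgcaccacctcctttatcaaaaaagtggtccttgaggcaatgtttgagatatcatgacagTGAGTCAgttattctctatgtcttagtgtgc
The last 3 sequences belong to a pair of sites that were less accessible after UV, at the ends of PIGP and ERP27, and to a site past EGR1 that was listed only without UV.
PIGP end, chr21:37062018-37062218: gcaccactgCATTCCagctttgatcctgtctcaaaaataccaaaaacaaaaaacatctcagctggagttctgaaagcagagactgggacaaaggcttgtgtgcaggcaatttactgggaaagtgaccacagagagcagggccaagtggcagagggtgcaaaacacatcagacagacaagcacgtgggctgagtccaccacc
ERP27 end, chr12:14913464-14913664: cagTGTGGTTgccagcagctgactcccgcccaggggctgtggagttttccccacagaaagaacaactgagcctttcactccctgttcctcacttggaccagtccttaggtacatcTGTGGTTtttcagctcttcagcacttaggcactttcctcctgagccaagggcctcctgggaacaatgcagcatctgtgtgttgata
EGR1 end, chr5:138470249-138470449: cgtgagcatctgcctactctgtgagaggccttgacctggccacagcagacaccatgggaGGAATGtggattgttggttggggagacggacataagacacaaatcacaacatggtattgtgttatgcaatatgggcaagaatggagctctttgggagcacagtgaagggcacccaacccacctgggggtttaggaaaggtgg

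The lists held 158198 to 220783 regions per library, and a list gives for each region a fold enrichment, the read pileup at its highest point divided by that expected from its surroundings in the same library. Depth was recovered only in relative terms, as the mean pileup over the genome, which ran from 1.39 to 5.87, with ASH1L-/- no UV replicate 1 the deepest. Regions were wider after UV, with median widths of 356 to 444 bp in the 4 UV lists against 242 to 291 bp in the others. Promoters of cell-type genes were examined too. Of 27 bone and extracellular matrix genes, 16 had a region within 1 kb of the TSS in all 8 lists. Among the 16 were the osteoblast regulators RUNX2 and SP7. Another 5 had one in 1 to 7 lists and 6 in none, the latter being ALPL, IBSP, POSTN, COL3A1, COL5A2 and MMP2. Of 10165 protein-coding genes whose next 5 kb all met the downstream rule, 5558 had one in all 8 lists and 2091 in none. The bone and matrix counts therefore do not identify the cell line. No list had a region within 1 kb of the TSS at the lymphocyte genes PTPRC and CD3E or at ALB, the liver albumin gene. A downstream region was nevertheless in all 8 lists at CD3E and in 2 at ALB, and in 0 at PTPRC.

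The number of downstream regions per list did not differ beyond the spread between libraries. It was 4953 and 5138 in WT no UV, 4237 and 4371 in WT 3 h post UV, 5806 and 4301 in ASH1L-/- no UV, and 4318 and 4981 in ASH1L-/- 3 h post UV. The ranges overlapped in both comparisons, and the 2 unirradiated ASH1L-/- libraries stood further apart than the replicates of any other group. The mean difference after UV was −0.17 on the log2 scale (exact permutation test over 70 assignments, two-sided, p = 0.2), and the difference between ASH1L-/- and WT was 0.05 (exact permutation p = 0.771). With regions of q-value below 0.05 the UV difference was 0.0023 and with q-value of 0.01 or below it was 0.158, so its direction depended on the threshold of the lists.

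Downstream regions took a slightly smaller share of the list after UV. The shares were 2.77% and 2.71% in WT no UV, 2.62% and 2.62% in WT 3 h post UV, 2.63% and 2.72% in ASH1L-/- no UV, and 2.61% and 2.50% in ASH1L-/- 3 h post UV. All 4 UV libraries were below all 4 others, 2.59% ± 0.0590 against 2.71% ± 0.0588 (SD, n = 4 each), although the nearest values were almost equal. The difference of −0.12 percentage points gave p = 0.0286 in the exact permutation test, the smallest that 70 assignments allow, and 0.257 after Benjamini-Hochberg adjustment over the 9 tests of this kind. The UV difference in WT cells minus that in ASH1L-/- cells was −0.00192 percentage points (exact permutation p = 1). The UV difference in share lost p < 0.05 when any 1 of the 4 UV libraries was left out (exact permutation p = 0.0571 each). The same held without regions near other TSSs (p = 0.0571, exact), with an equal number of regions per list (p = 0.0857, exact) and with a 10 kb window (p = 0.229, exact).

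The rank of downstream regions within their list was close to the middle. The median percentile of fold enrichment was 49.9 and 46.7 in WT no UV, 50.9 and 51.0 in WT 3 h post UV, 49.0 and 48.8 in ASH1L-/- no UV, and 48.3 and 51.2 in ASH1L-/- 3 h post UV. The UV libraries were on average 1.76 percentiles higher, but ASH1L-/- 3 h post UV replicate 1 lay within the unirradiated range (exact permutation p = 0.114). For regions 0 to 2 kb past the end the difference was 3.57 percentiles (exact permutation p = 0.0286, unadjusted). No genotype difference in number, share or percentile gave an exact permutation p below 0.4, and no difference of the UV response between genotypes one below 0.486.

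**Figure D1:**
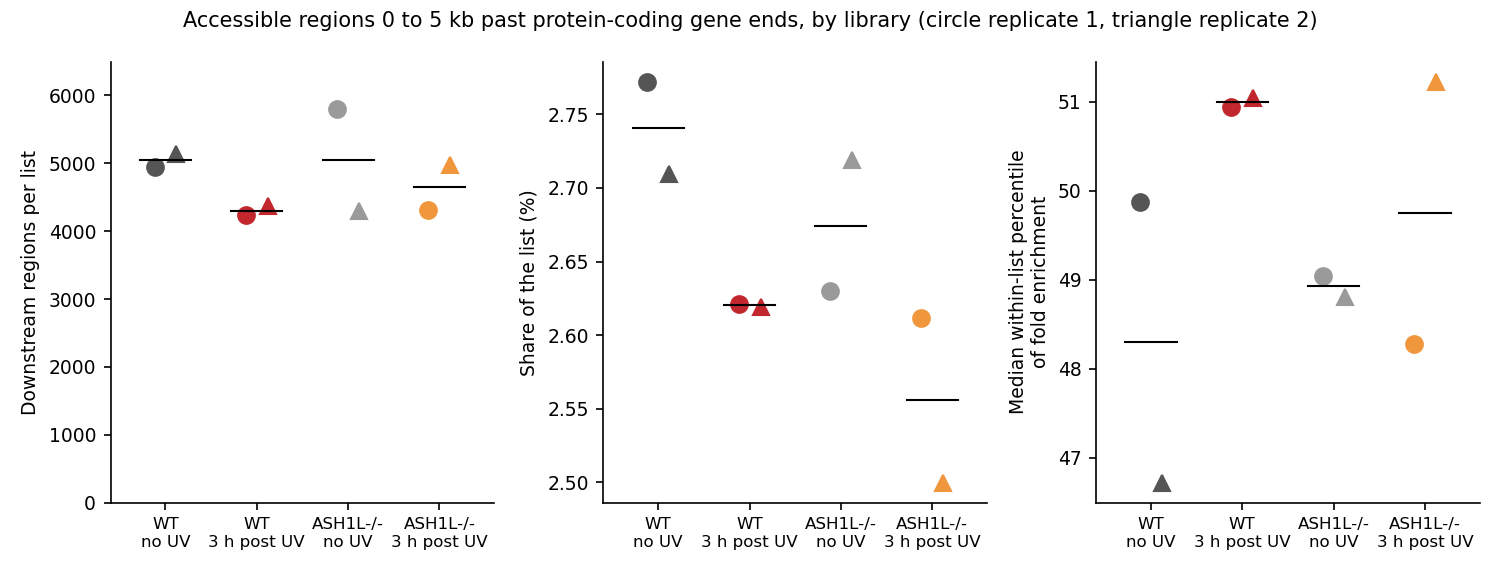
Number of downstream regions per list, their share of the list in percent and their median within-list percentile of fold enrichment in the 8 libraries. Each symbol is a library and the lines are group means of 2 libraries. The 4 UV libraries have shares of 2.50% to 2.62%, below the 2.63% to 2.77% of the others, while the numbers overlap. The axes of share and percentile do not start at 0.

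Gene ends were denser in accessible regions than the 3 kinds of sequence they were compared with. Downstream sequence covered 57.3 Mb and held 83.1 ± 9.67 regions per Mb (SD, n = 8). Intergenic sequence 2 to 7 kb upstream of a TSS (53.9 Mb) held 70.4 ± 5.38 per Mb, the last 5 kb inside genes (81.5 Mb) 71.7 ± 9.0 per Mb, and the rest of intergenic sequence (1470 Mb) 51.0 ± 7.12 per Mb. Sequence that met both the downstream and the upstream rule was counted as downstream only. The upstream class thus covered 57.5 Mb with a downstream window of 2 kb and 49.0 Mb with one of 10 kb. How far this shared sequence set the ratio to the upstream class was not tested. The ratio of downstream density to each was 1.18, 1.16 and 1.63, and downstream density was higher in 8 of 8 libraries in each case (exact sign-flip permutation test over 256 flips, p = 0.00781, the smallest it allows; adjusted over 6 tests, 0.0156). The lowest ratios in any library were 1.06, 1.11 and 1.51.

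Strength did not follow density. Downstream regions differed by −4.62 percentiles in median from regions upstream of a TSS (lower in 7 of 8 libraries, exact sign-flip permutation p = 0.0156) and 6.32 percentiles higher than regions in gene tails (higher in 7 of 8 libraries and equal in the other, p = 0.0156 by the same exact test). Against the rest of intergenic sequence the difference was 0.57 percentiles (p = 0.344, exact). With regions of q-value of 0.01 or below the difference from upstream regions was −1.05 (exact p = 0.328).

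The density changed most at the gene end itself. In the last 1 kb inside genes it was 66.0 ± 7.32 regions per Mb (mean and SD of the 8 libraries). In the first 1 kb past the end it was 83.5, in the second 85.3, in the third 82.4, in the fourth 83.1 and in the fifth 80.6. Just outside the 5 kb limit, at 5 to 6 kb, it was 76.3, and over each further 1 kb to 15 kb it stayed between 74.6 and 78.3. From 15 to 20 kb it ran from 69.8 to 83.3, and at 18 to 19 kb (83.3) it was as high as in the first 1 kb past the end. In WT no UV libraries the first 2 kb held 87.3 to 92.6 regions per Mb, and in WT 3 h post UV libraries 72.9 to 77.7, so these 2 groups did not overlap there. In ASH1L-/- cells they did, with 76.4 to 109 without UV and 73.1 to 88.8 after UV. The WT libraries also separated in the rest of intergenic sequence, with 49.4 and 54.7 without UV and 44.4 and 46.2 after UV.

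**Figure D2:**
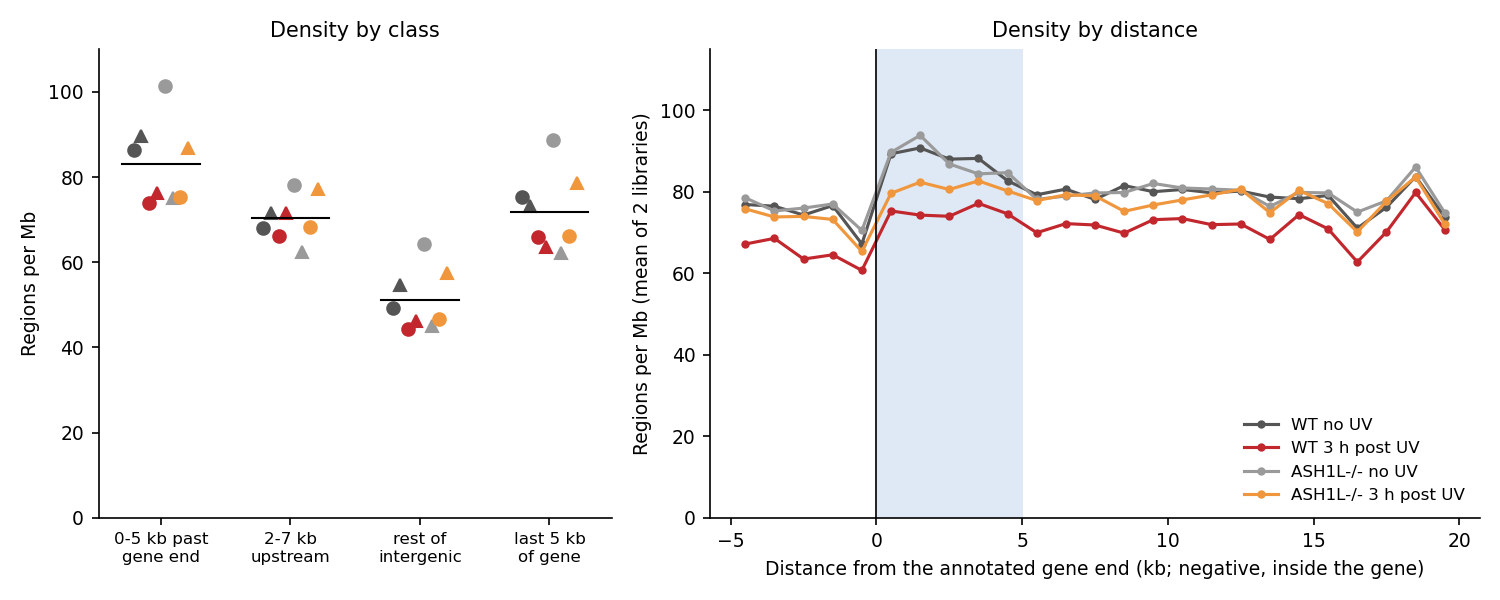
Left, regions per Mb in 4 classes of sequence, with a symbol for each of the 8 libraries (circle replicate 1, triangle replicate 2, colours as in the legend) and a line at their mean. Right, regions per Mb in 1 kb steps from 5 kb inside the gene to 20 kb past its end, as the mean of the 2 libraries of each group, with the 0 to 5 kb window shaded. Density steps up from 66.0 in the last 1 kb of genes to 83.5 in the first 1 kb past them.

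Of 19970 protein-coding genes, 14911 had eligible downstream sequence, and 1629 of these (10.9%) had a downstream region in all 8 lists, 6197 in 1 to 7 lists and 7085 in none. A single list had a downstream region at 3438 to 4484 genes, with 1.23 to 1.29 regions per such gene. Among the 10165 genes whose whole 5 kb was eligible, a list had a downstream region at 32.6% ± 3.33 (SD, n = 8). The value was 33.0% ± 3.88 for genes with a promoter region in all 8 lists, 37.3% ± 3.42 for genes with one in 1 to 7 lists and 25.8% ± 2.23 for genes with none, so the genes with the most constant promoters did not have the most frequent downstream regions. It was 33.2% ± 3.41 where the next gene ran in the same orientation and 31.7% ± 3.27 where it ran towards the gene end. Where the near edge of the next gene, its start or its end, lay within 25 kb, the value was 35.1% ± 3.23, against 26.5% ± 3.12 beyond 100 kb. These shares are given without a test, since genes of 1 list share the library.

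Most downstream sites were found once: 8392 of the 14131 (59.4%) were in 1 list, against 60.5% of all sites, and 1685 (11.9%) were in all 8, against 11% of all sites. Of the 1685, which lay at 1569 genes, 11.2% were within 1 kb of the TSS of a non-coding or other annotated gene. The strongest were near the top of every list. A site past GTF2A1, which encodes a subunit of the general factor TFIIA (chr14:81169975-81170961, 4984 bp past the end and within 1 kb of another annotated TSS), had fold enrichments of 17.8 to 27.4 and a mean percentile of 99.9. The next were past SP1, the GC-box transcription factor (chr12:53420687-53421934, 18.8 to 24.7), the kinase gene CDKL2 (chr4:75573318-75574102, 18.2 to 28.1), the golgin gene GOLGA6B (chr15:72670572-72671284, 16.9 to 25.1), the antizyme inhibitor gene AZIN2 (chr1:33127048-33127823, 18.4 to 22.5) and SGCA, which encodes a sarcoglycan of muscle membranes (chr17:50177988-50178859, 17.6 to 21.8). None of these 6 differed by UV (adjusted p of limma 0.196 to 0.998) or by genotype (0.603 to 0.993). GOLGA6B belongs to a family of near-identical copies, so its reads may be shared with them.

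UV was followed by differences in both directions at gene ends. Fold enrichment was compared at the 60324 sites present in all 8 lists, on the log2 scale after quantile normalisation between libraries, with limma and Benjamini-Hochberg adjustment over all of these sites. Of the 1685 downstream sites, 119 (7.06%) were higher 3 h post UV, against a background of 9.22% of all tested sites, and 112 (6.65%) were lower, against 7.83%. Gene ends thus had no larger share of called sites than all sites in either direction. The median difference was −0.03 over the downstream sites and −0.03 over all sites. The sites called higher had log2 differences of 0.34 to 1.61 and those called lower of −1.53 to −0.34.

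The split between higher and lower sites rested on the scaling. Without normalisation the UV libraries had larger fold enrichments throughout, by 0.33 in the median over all sites on the log2 scale. Then 349 downstream sites were called higher and 17 lower, against 14267 and 538 of all 60324 tested sites. With each library centred on its median, 100 were higher and 169 lower, against 4615 and 7567. The share of higher among called downstream sites was 51.5% with quantile normalisation, 37.2% with median centring and 95.4% without. Among all called sites it was 54.1%, 37.9% and 96.4%, so gene ends moved with all sites. Higher and lower are therefore relative to the other sites of the same libraries. Without WT 3 h post UV replicate 2, 74 of 1692 downstream sites were higher, against 3765 of all 60520 tested sites. Without ASH1L-/- 3 h post UV replicate 1, 71 of 1712 were higher and 72 lower, against 3753 and 2961 of all 61085.

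The largest difference was past DCAF4, which encodes a substrate receptor of the DDB1-cullin 4 ubiquitin ligase (chr14:72962511-72963468, 3287 bp past the end). Its fold enrichment was 3.70 and 2.33 in WT no UV, 12.1 and 12.4 in WT 3 h post UV, 3.29 and 2.92 in ASH1L-/- no UV, and 12.3 and 11 in ASH1L-/- 3 h post UV, a log2 difference of 1.61 ± 0.225 (SE; adjusted p = 0.000166, limma). Both genotypes showed the same separation, with every UV library far above every other. The site past ERLIN1, a gene for a lipid-raft protein of the endoplasmic reticulum (chr10:100148430-100149287, 1235 bp past the end), had 4.82 and 6.26 in WT no UV, 15.3 and 16.7 in WT 3 h post UV, 3.18 and 4.95 in ASH1L-/- no UV, and 13.7 and 11.9 in ASH1L-/- 3 h post UV (1.25 ± 0.167, adjusted p = 0.000117, limma).

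The other 3 sites described that were higher after UV also separated completely. NBPF4 (chr1:108217705-108218043, 4590 bp past the end, log2 difference 1.55 ± 0.204) belongs to a family of similar copies. SORL1 encodes a sorting receptor (chr11:121634701-121635398, 1287 bp, 1.29 ± 0.235) and CPED1 a protein with a cadherin-like domain (chr7:121302118-121302700, 4967 bp, 1.29 ± 0.159). Over these 3 sites the fold enrichment was 2.33 to 6.78 without UV and 8.70 to 19.6 after UV, with adjusted p of 6.57e-05 to 0.00115 (limma).

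The strongest decrease was past TRIM47, which encodes a ubiquitin ligase of the tripartite-motif family (chr17:75872428-75873230, 1335 bp past the end). The fold enrichment was 4.11 and 4.93 in WT no UV, 1.7 and 2.12 in WT 3 h post UV, 3.94 and 5.48 in ASH1L-/- no UV, and 1.81 and 1.93 in ASH1L-/- 3 h post UV (log2 difference −1.53 ± 0.177, adjusted p = 4.67e-05, limma). All 4 irradiated libraries had this site at the bottom of their lists, at percentiles of 0.0328 to 1.19. Past PIGP, a gene of glycosylphosphatidylinositol anchor synthesis (chr21:37061811-37062499, 691 bp), the values were 14.4 and 9.93 in WT no UV, 3.25 and 6.27 in WT 3 h post UV, 9.64 and 9.24 in ASH1L-/- no UV, and 5.99 and 5.17 in ASH1L-/- 3 h post UV (−1.44 ± 0.202, adjusted p = 0.000175, limma).

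The sites past FBXO27, an F-box protein gene (chr19:38988841-38989680, 1453 bp, −1.41 ± 0.176), CLPTM1L, a membrane protein gene (chr5:1316084-1316954, 1233 bp, −1.33 ± 0.208), ERP27, a gene for a protein of the disulfide isomerase family (chr12:14913184-14913955, 469 bp, −1.26 ± 0.205) and TOM1L2, an endosomal trafficking gene (chr17:17839914-17841242, 2933 bp, −1.22 ± 0.213), were lower too. Their fold enrichments were 4.45 to 17.7 without UV and 2.17 to 10.0 after UV, and within each site every UV library was below every other library. The 6 lower sites and the 5 described as higher kept direction and call under every normalisation and when any library was left out.

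**Figure D3:**
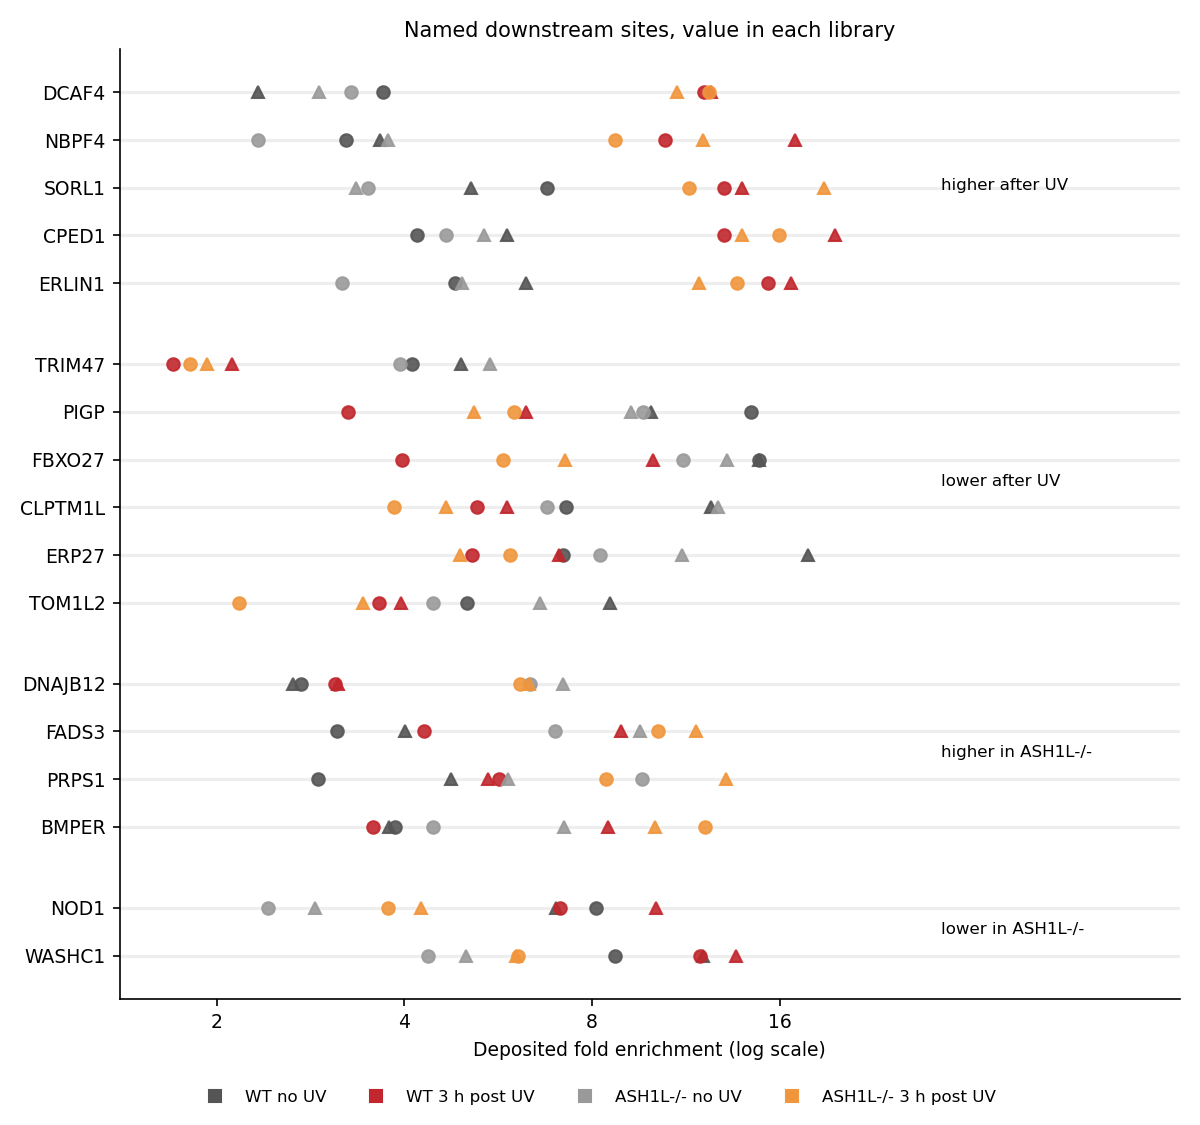
Deposited fold enrichment (log axis) of the named downstream sites in each library, before normalisation between libraries. Circles are replicate 1 and triangles replicate 2. In the 5 upper sites all UV libraries lie to the right of all others, in the next 6 to the left. FADS3 and BMPER overlap between genotypes in these values and separated only after normalisation.

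A sequence feature that the comparison did not use was common in the sites that were higher after UV. The window of the printed sequences, centred on the summit, was taken from each site and searched on both strands. TGANTCA, the AP-1 letters, was in 59 of the 119 downstream sites higher after UV (49.6%), in 17.0% of the 112 lower ones and in 17.4% of the 1454 not called. Among all tested sites 23.2% held it, with 45.2% of those higher and 16.1% of those lower, so gene ends resembled all sites in this. Of the 331 downstream sites with TGANTCA, 17.8% were higher and 5.74% lower after UV, with a median log2 difference of 0.08, and of the 1354 without it 4.43% were higher and 6.87% lower, with a median of −0.05. In downstream sites seen in 1 list TGANTCA occurred in 6.74%, and in all sites seen in 1 list in 7.24%.

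Other letters were counted in the same windows. GGAATG (TEAD) was in 26.8% of the 112 lower downstream sites, 18.5% of the higher and 16.6% of those not called, and in 17.6% of all tested sites and 26.7% of all those lower after UV. TGTGGTT (RUNX) was in 11.6% of the lower, 10.1% of the higher and 5.98% of those not called, and in 6.71% of all tested sites. CCANNAGNNGGC, core letters of the CTCF motif, was in 4.87% of the 1685 downstream sites and in 4.95% of sites in gene tails. It was in 2.52% of all tested sites and 2.25% of the rest of intergenic sequence. Of the 82 downstream sites with it 1 was higher (1.22%) and 3 were lower (3.66%) after UV. Among all 1520 tested sites with it 3.82% were higher and 4.93% lower, so few calls were not particular to gene ends. AATAAA, the letters of the polyadenylation signal, was in 13.9% of downstream sites and 16.1% of all sites. The p53 half-site pair CATGNNNNNNCATG was in 0.356% against 0.642%. The GC content of the windows was 52.4% ± 9.09 at downstream sites (SD over 1685 windows), 48.0% ± 7.81 in the higher and 52.0% ± 8.68 in the lower. All tested sites had 51.0% ± 9.90, with 46.4% ± 7.75 in all those higher and 51.2% ± 9.45 in all those lower. A match is a description of letters, and occupancy was not measured.

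ASH1L-/- and WT cells differed at few gene ends. The limma fit called 4 downstream sites higher in ASH1L-/- cells (0.237%, against a background of 0.474% of all tested sites) and 2 lower (0.119%, against 0.489%). A UV by genotype term called 0 of 60324 sites (0%) and 0 downstream sites, with 42 downstream sites at an unadjusted p below 0.05, against 2275 of all 60324 sites. A different UV response of the genotypes was thus not detected at these 1685 sites with 2 libraries per group, and the downstream sites missing from any list could not be tested in this way.

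**Figure D4:**
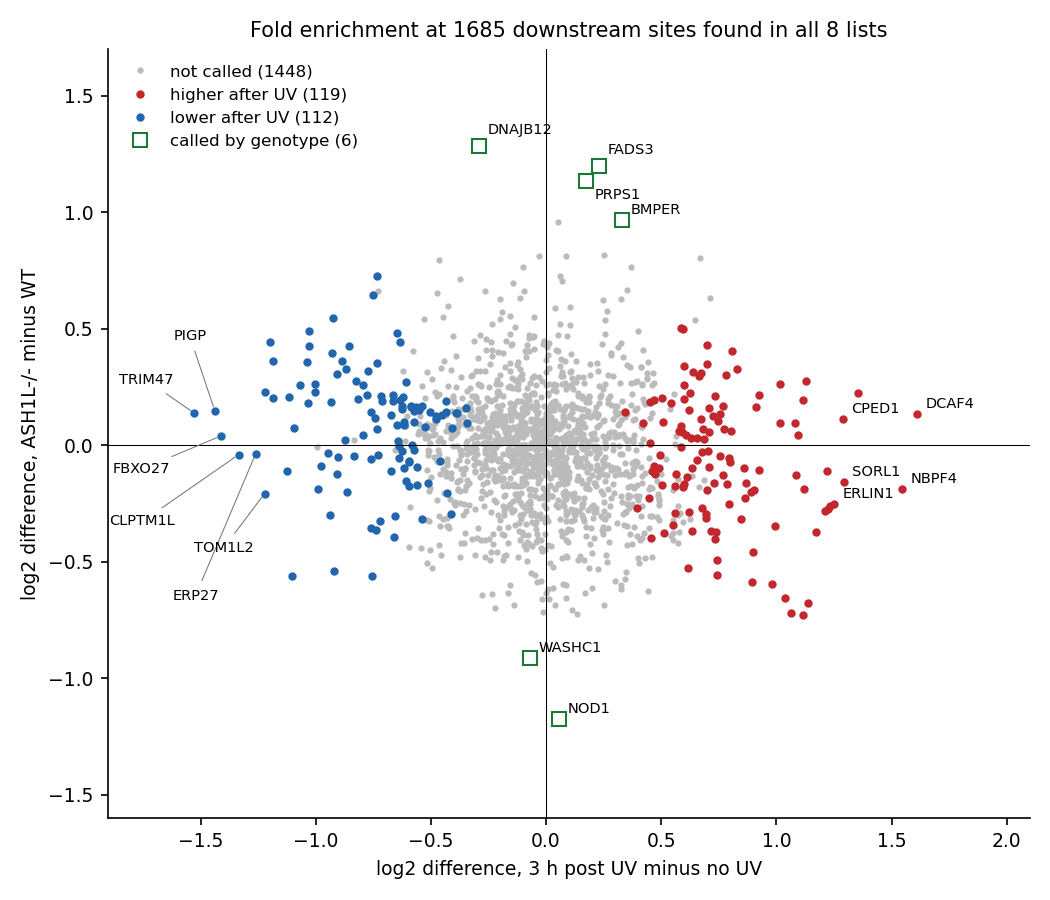
Log2 difference by UV (x axis) and by genotype (y axis) of normalised fold enrichment at the 1685 downstream sites present in all 8 lists. Red and blue points are the 119 sites higher and 112 lower after UV, green squares the 6 called by genotype. The UV differences reach 1.61 and −1.53, and the 6 genotype calls lie between −0.29 and 0.33 on the UV axis.

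The site past DNAJB12, a co-chaperone gene of the endoplasmic reticulum (chr10:72331761-72332458, 720 bp past the end), had fold enrichments of 2.73, 2.65, 3.09 and 3.13 in WT cells, without and then with UV, and of 6.36, 7.20, 6.14 and 6.35 in ASH1L-/- cells (log2 difference 1.28 ± 0.202, adjusted p = 0.00421, limma). The 2 genotypes were far apart at both time points. Past NOD1, an innate immune sensor gene (chr7:30422775-30423400, 1439 bp), the WT values were 8.12, 7.01, 7.1 and 10.1 and the ASH1L-/- values 2.42, 2.88, 3.77 and 4.26 (−1.17 ± 0.202, adjusted p = 0.00736, limma). The site past WASHC1, a gene of the actin-regulating WASH complex at the start of chromosome 9 (chr9:11204-11603, 3071 bp), had 8.71 to 13.6 in WT and 4.37 to 6.09 in ASH1L-/- (−0.92 ± 0.166, adjusted p = 0.0112, limma, and 0.0544 without WT 3 h post UV replicate 1). That locus has near-identical copies at other chromosome ends, so its reads may come from several of them.

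The other 3 sites higher in ASH1L-/- cells were less secure. FADS3, a fatty acid desaturase gene (chr11:61870857-61871656, 2262 bp), had a log2 difference of 1.2 ± 0.193 (adjusted p = 0.00509, limma), but the deposited value of WT 3 h post UV replicate 2, 8.91, exceeded that of ASH1L-/- no UV replicate 1, 6.97. PRPS1, which encodes a phosphoribosyl pyrophosphate synthetase (chrX:107654767-107655747, 3264 bp, 1.14 ± 0.239), and BMPER, a gene for a BMP-binding protein (chr7:34160157-34160753, 4028 bp, 0.97 ± 0.208), lost the call without WT 3 h post UV replicate 1 (adjusted p = 0.0527 and 0.108, limma) and without several other libraries, with adjusted p up to 0.123 and 0.146. The 6 sites lay on chromosomes 7, 9, 10, 11 and X, and only chromosome 7 held 2. How far a library or colony, and not the disruption, set these differences was not tested.

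Some downstream sites were listed in all libraries of a condition and in none of the other. After UV 84 downstream sites were gained in this sense (0.594% of the 14131, against 0.686% of all sites) and 21 were lost (0.149%, against 0.0969%). Without WT 3 h post UV replicate 1, 151 were gained, and without WT no UV replicate 1, 62 were lost, as fewer lists then have to agree. The strongest gained site lay past NIM1K, a kinase gene (chr5:43281573-43282478, 1176 bp), with fold enrichments of 5.17 and 10.6 in WT 3 h post UV and 6.99 and 10.9 in ASH1L-/- 3 h post UV. The next lay past NKD2, an inhibitor of Wnt signalling (chr5:1041077-1041735, 6.01 to 9.81), SLC35E3, a solute carrier gene followed in the same orientation by the p53 regulator MDM2 (chr12:68794791-68795396, 5.10 to 11.9), and AKT2, a kinase of insulin signalling (chr19:40229456-40229992, 5.30 to 10.2). All were in the 4 UV lists and absent from the other 4.

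The strongest lost sites lay past EGR1, the immediate-early transcription factor (chr5:138469464-138471374, 1116 bp), with 4.04 and 4.67 in WT no UV and 2.88 and 4.61 in ASH1L-/- no UV, and past ENC1, a kelch protein gene (chr5:74626217-74626994, 800 bp), with 3.32 to 4.49 in the unirradiated libraries. At ENC1 the lists differed less where a region had to cover at least 50% of the site. By genotype, 24 downstream sites were in all ASH1L-/- lists and no WT list (0.170%, against 0.187% of all sites) and 11 the reverse (0.0778%, against 0.0769%), so both shares were close to those of all sites. The strongest of the first kind were past AURKB, the mitotic kinase Aurora B (chr17:8200022-8200777, 4.55 to 9.02), and the zinc finger gene ZFP14 (chr19:36331339-36332070, 5.10 to 7.77), both within 1 kb of a TSS of another annotated gene. Those of the second kind were past GINS3, a replication fork gene (chr16:58409150-58409867, 3.12 to 6.80), and SH3BP5L (chr1:248807009-248807562, 2.83 to 6.80). A missing region means only that it did not reach the p-value of 0.01 at which the lists end.

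The ends of stress genes were often accessible without UV. Of 26 stress-induced transcription factor and immediate-early genes, 22 had eligible sequence, and 8 of these (36.4%, against 10.9% of all eligible genes) had a downstream region in all 8 lists: EGR3, IER5, KLF2, KLF4, KLF6, MYC, DUSP1 and DUSP5. The strongest was past DUSP5, a MAP kinase phosphatase gene, with 9.53 to 19 (chr10:110512578-110513344, log2 UV difference 0.15 ± 0.118, adjusted p = 0.417, limma). At 4 genes, EGR2, DUSP4, PPP1R15A and GADD45A, no list had one. Of the 9 sites of the list tested, 0 were higher and 2 lower after UV by the limma fit, against 9.22% and 7.83% of all tested sites. Both lay past 1 gene, IER5, an immediate-early response gene (chr1:181096186-181096851, −0.91 ± 0.197, adjusted p = 0.00422, and chr1:181094658-181095342, −0.58 ± 0.195, adjusted p = 0.0464, limma). The second lost the call when any library but WT no UV replicate 2 was left out (adjusted p up to 0.166), and neither was called on the deposited values without normalisation (adjusted p = 0.115 and 0.6).

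Several ends of this list were in more unirradiated than irradiated lists, a count made after the values were seen. That held for 9 of the 22 genes (40.9%), against 21.2% of all 14911 eligible genes, and the reverse for 1 (4.55%), FOSL2, against 13.5%. EGR1 had a downstream region in 4 unirradiated and 0 irradiated lists, FOS and IER2 in 3 and 0, JUN in 4 and 1, GADD45B in 3 and 1, DUSP6 in 2 and 0, and JUND, ATF3 and KLF10 in 1 and 0. The regions past FOS (chr14:75283826-75284294, 1830 bp past the end) were weak, with fold enrichments of 2.97 and 2.52 in WT no UV and 1.96 in ASH1L-/- no UV replicate 1. Without the deepest library the counts were 8 and 1, and with regions of q-value below 0.05 they were 9 and 2. All eligible genes leaned the same way, and downstream regions were fewer on average in the irradiated lists, whose part in these counts was not tested.

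Of 20 p53 target genes, 12 were eligible, and 1 of these (8.33%, against 10.9% of all eligible genes) had a downstream region in all 8 lists. That was PHLDA3, a repressor of AKT signalling (chr1:201461037-201462370, 8.37 to 11.4, log2 UV difference −0.59 ± 0.158, adjusted p = 0.0162, limma). Its call was lost without normalisation (adjusted p = 0.468) and without ASH1L-/- no UV replicate 2 or either ASH1L-/- 3 h post UV library (0.0511 to 0.0562). The end of CDKN1A, the gene of the cell cycle inhibitor p21, repeated the pattern of EGR1: a region 961 bp past it (chr6:36687941-36688655) had 3.22 and 3.88 in WT no UV and 3.32 and 3.12 in ASH1L-/- no UV and was in no irradiated list. SESN2, a stress-inducible metabolic regulator, had one in 3 unirradiated and 0 irradiated lists. In the other direction, a region 2699 bp past the death receptor gene FAS (chr10:89031951-89032657) had 4.59 and 6.04 in WT no UV, 12.4 and 16.7 in WT 3 h post UV, 2.48 and no value in ASH1L-/- no UV, and 7.83 and 9.26 in ASH1L-/- 3 h post UV. In all, 5 of the 12 genes were in more unirradiated lists and 1 in more irradiated ones, and with regions of q-value below 0.05 these were 3 and 2. The same count was 9 and 3 of 23 nucleotide excision repair genes, 6 and 3 of 18 YAP-TEAD target genes, 3 and 4 of 21 matrix and osteoblast genes and 2 and 4 of 14 cleavage and polyadenylation factor genes, and the differences between these lists were not tested. CDKN1A, SESN2, FAS, LATS2 and CETN2 were named after their values were seen.

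YAP-TEAD target genes had a downstream region in all 8 lists at 5 of 18 eligible genes (ANKRD1, AMOTL1, TEAD4, WWTR1 and NUAK2), 27.8% against 10.9% of all eligible genes. Of their 6 tested sites 0 were higher and 2 lower after UV, against 9.22% and 7.83% of all tested sites: past NUAK2, a kinase gene (chr1:205300709-205301896, −0.71 ± 0.170, adjusted p = 0.00785, limma), and past ANKRD1, a transcriptional cofactor gene (chr10:90911092-90912181, −0.62 ± 0.171, adjusted p = 0.0173, limma). Neither was called without normalisation (adjusted p = 0.255 and 0.487), and ANKRD1 lost its call without ASH1L-/- no UV replicate 1 or either ASH1L-/- 3 h post UV library (0.0526 to 0.0586). LATS2, which encodes a kinase that restrains YAP, had a region in all 4 irradiated lists and in no other (chr13:20969237-20969622, 2.88 to 3.81).

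**Figure D5:**
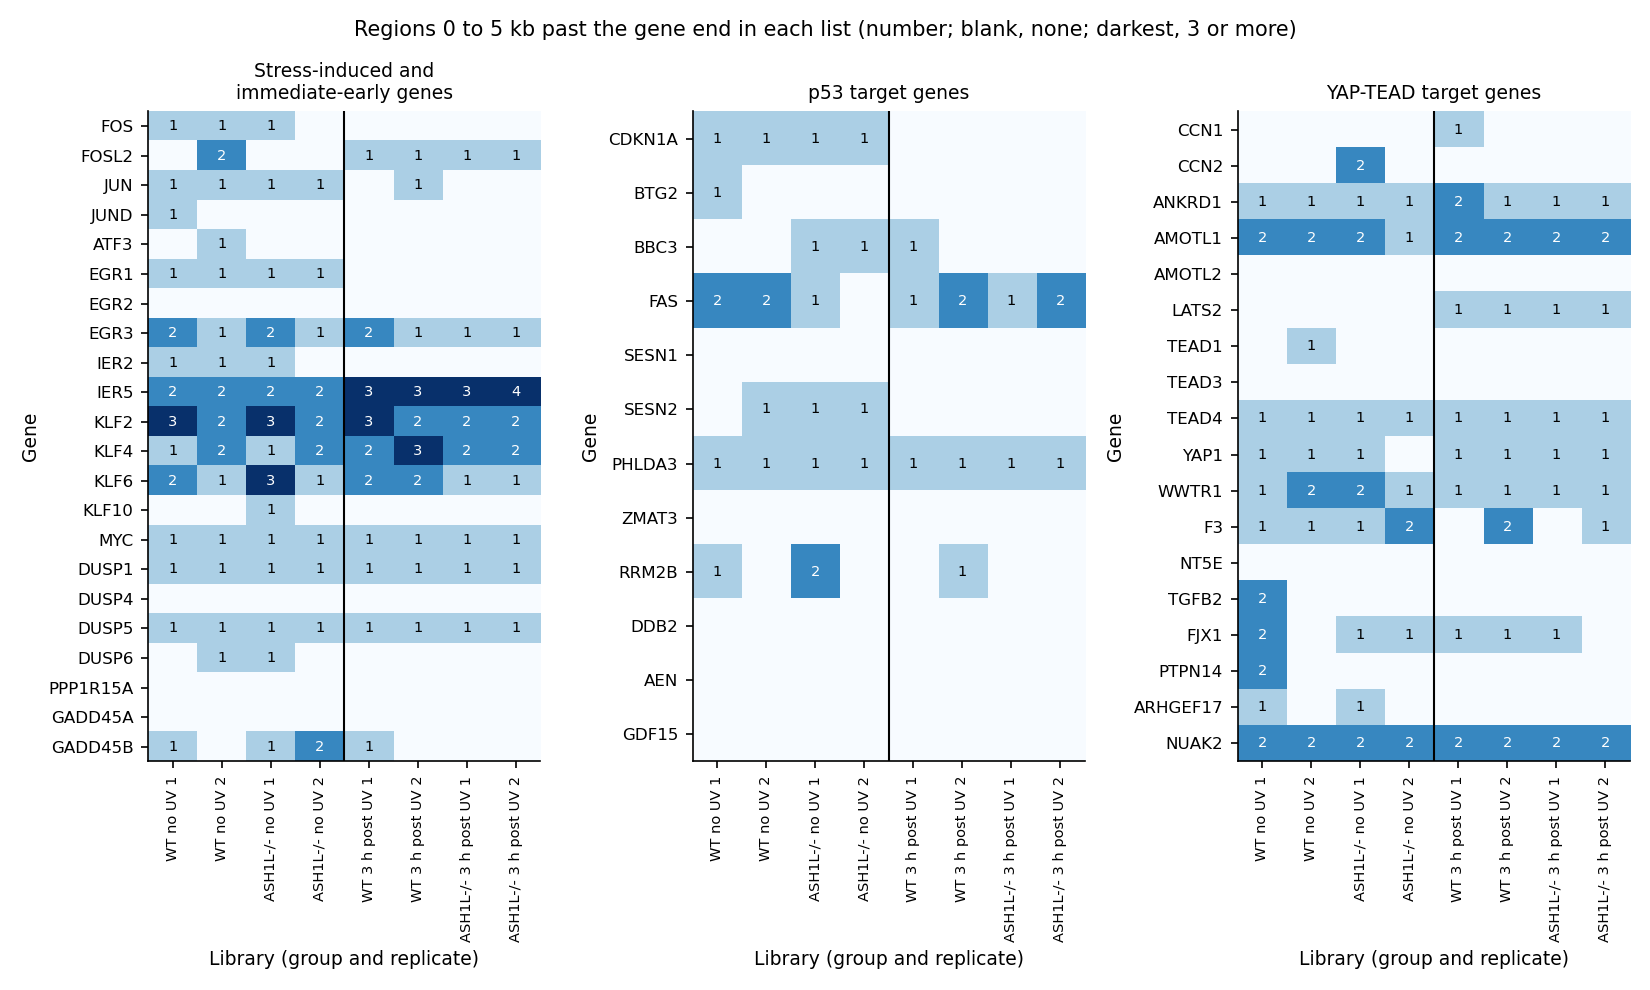
Number of regions 0 to 5 kb past the end of each eligible gene of 3 lists (rows) in each library (columns, unirradiated left of the line and irradiated right). Blank cells have none. EGR1 and CDKN1A are filled in the 4 unirradiated columns and blank in the 4 irradiated ones, while MYC, DUSP1, DUSP5 and PHLDA3 are filled in all 8.

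Few sites of the remaining lists were called. Of 23 eligible nucleotide excision repair genes, 2 (8.70%, against 10.9% of all eligible genes) had a downstream region in all 8 lists. They were ERCC3, a helicase subunit of TFIIH (chr2:127254223-127254931, 9.13 to 16.3), and DDB1, part of the UV damage sensor complex (chr11:61297319-61298296, 4.47 to 15.4). Neither was called by UV (adjusted p = 0.521 and 0.154, limma). CETN2, the centrin of the XPC complex, had a site in the 4 irradiated lists and no other (chrX:152824890-152825382, 7.08 and 9.46 in WT, 3.19 and 4.72 in ASH1L-/-). None of 14 eligible cleavage, polyadenylation and termination factor genes had one in all 8 lists, and their strongest was past WDR33, a subunit that reads the polyadenylation signal, in 6 lists (1.74 to 7.20). Of 21 eligible extracellular matrix and osteoblast genes, 5 (23.8%, against 10.9% of all eligible genes) had a downstream region in all 8 lists. The strongest lay past SPP1, the osteopontin gene (7.65 to 13.4). Of their 6 tested sites 0 were called by UV, against 9.22% higher and 7.83% lower of all tested sites, and 0 by genotype.

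Cytoplasmic ribosomal protein genes had a downstream region in all 8 lists at 6 of 49 eligible genes (12.2%, against 10.9% of all eligible genes). Their strongest site, past RPL3 (chr22:39308469-39309644, 5.40 to 15.6), was not called by UV (0.45 ± 0.166, adjusted p = 0.0682, limma), whereas a second site nearer the same end (chr22:39310814-39311569, 1690 bp) was lower (−0.93 ± 0.191, adjusted p = 0.00281, limma, and 0.0996 without normalisation). Replication-dependent histone genes, whose transcripts end without polyadenylation, had one at 2 of 59 and chromosome 19 zinc finger genes at 6 of 170, that is 3.39% and 3.53% against 10.9% of all eligible genes. The histone site past H3C8 was higher after UV (chr6:26268835-26269379, 0.76 ± 0.189, adjusted p = 0.0102, limma), and the strongest histone and zinc finger sites, past H2BC26 (5.82 to 13.6) and ZNF383 (13.1 to 19.8), were not called. Of ASH1L, its partner MORF4L1 and the FACT gene SUPT16H, the eligible genes of their list, none had one in all 8 lists. The ASH1L end had a region in each WT no UV list and in no other list, but its strongest site (chr1:155334802-155334976) was in 1 list only, so the 2 lists did not share it.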

How the data were processed

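ATAC-seq libraries had been made with the Omni-ATAC protocol and sequenced as 50 bp paired ends. Per the submitters' processing notes and the study's methods, the authors trimmed reads with cutadapt 1.9.1 and aligned them with Bowtie2 2.4.5 to hg38 without chromosome Y. With SAMtools 1.7, Picard and bedtools 2.29.2 they removed duplicates, poorly mapped reads, blacklisted regions, mitochondrial reads and other contigs, and MACS2 2.2.7.1 called peaks in each library separately. The deposited lists give a fold enrichment (a ratio of pileup to local background), a −log10 p and a −log10 q per summit. Depth is unknown beyond a mean pileup estimated from these columns, so no counting interval was given, and only sites present in all 8 lists could be compared by value.

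Records of an interval were merged to 1 region with its highest fold enrichment and assigned by midpoint to GENCODE 44 annotation. Overlapping regions of the 8 lists were joined to sites. Numbers (log2), shares and median percentiles were compared by exact permutation of libraries, classes of sequence by exact sign flips within libraries, and sites by limma 3.58.1 on quantile-normalised log2 fold enrichment with terms for UV and genotype (R 4.3.3, Python 3.11.15, scipy 1.17.1). These scripts were tested on simulated data. Named sites were the 6 strongest by mean percentile, the 6 higher and 6 lower after UV and up to 4 each way by genotype with the largest non-overlapping called differences, the 4 gained and 2 lost after UV and 2 each way by genotype, and the strongest site of each gene list, with at most 1 of the first kind per gene. A site that this rule names is not reported here. The members and gene lists were chosen with earlier results of these data known. Alternatives were other q-value limits, an equal number of regions per list, windows of 2 and 10 kb, regions near other TSSs left out, every transcript's TSS, a coverage minimum, median centring, a UV by genotype term, a replicate block and leaving out each library. The mean percentile, values without normalisation and the counts of gene ends by direction were chosen after seeing the data. The replicate numbers did not pair the libraries, since correlations of deviations from group means ran from −0.13 to 0.16.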

Additional observations from a re-analysis of the deposited data

Results flagged for a closer look

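Among 108 sets of 4 libraries, 5 held a library that stood apart from the other 3 by Dixon's criterion at the 95% level, and chance alone marks about 1 set in 20. The downstream share of ASH1L-/- 3 h post UV replicate 2 was 2.50%, against 2.61% to 2.62% in the other irradiated libraries. The median percentile of ASH1L-/- 3 h post UV replicate 1 was 48.3, against 50.9 to 51.2. At the site past PIGP, WT no UV replicate 1 had a fold enrichment of 14.4, against 9.24 to 9.93 in the other unirradiated libraries. Past ERP27, WT no UV replicate 2 had 17.7, against 5.13 to 7.18 in the other WT libraries, a set that spans both time points. Past BMPER, WT 3 h post UV replicate 2 had 8.48, against 3.56 to 3.86 in the other WT libraries, and without this library BMPER was no longer called by genotype (adjusted p = 0.068, limma).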

How the results depend on the processing

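The density of downstream regions exceeded that of the 3 other classes under every alternative run. Most UV and genotype differences in number, share and percentile were small enough to change sign. With q-values below 0.05 the UV difference in number was 0.0023 (log2), the UV by genotype difference in share 0.0026 and the genotype difference in median percentile 0.212. With q-values of 0.01 or below the UV, genotype and UV by genotype differences in number were 0.158, −0.011 and 0.0076, that of UV by genotype in share was 0.0383, the median percentile against upstream regions was −1.05, and 13 sites were lost after UV. With equal list lengths the genotype and UV by genotype differences in number were −0.040 and 0.00057, the UV difference in share −0.119 and the percentile against the rest of intergenic sequence 1.68 (exact permutation p = 0.0312), a value that was −0.612 for the 2 kb window, −0.204 without regions near other TSSs and −0.290 as a mean percentile. The 2 kb window gave a UV difference in percentile of 3.57 and a UV by genotype difference in share of 0.0162, and the 10 kb window a UV difference in share of −0.108 and a UV by genotype difference in percentile of −0.318. Without regions near other TSSs the UV difference in share was −0.115 (exact permutation p = 0.0571), the genotype difference in percentile 0.273 and 1 site was lower in ASH1L-/- cells. With q-values below 0.05, 7 sites were in WT lists only. Median centring called 169 sites lower after UV and 7 higher in ASH1L-/- cells, and values without normalisation 349 higher and 17 lower after UV and 1 higher in ASH1L-/- cells. The causes were not tested. With the replicate number as a block the UV difference in share kept its value of −0.120, but its exact permutation p was 0.0556, the smallest that 36 assignments allow; limma with this block called 120 and 117 downstream sites by UV and 4 and 2 by genotype, and the block changed no other call.

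Leaving out 1 library moved the UV difference in share between −0.145 and −0.0901, the UV by genotype difference in share between −0.101 and 0.0808, the genotype difference in percentile between −1.28 and 0.158 and that in number between −0.0430 and 0.101. The UV difference in number ran from −0.243 to −0.0986 and the UV by genotype difference in number from −0.338 to −0.0347. The downstream sites called higher after UV ran from 71 to 134, those lower from 72 to 119, those higher in ASH1L-/- cells from 2 (without either WT 3 h post UV library) to 11 (without WT no UV replicate 1) and those lower from 1 (without WT 3 h post UV replicate 1) to 7 (without WT no UV replicate 1). Among all tested sites those higher after UV ran from 3753 to 6500 and those lower from 2894 to 5163. Downstream sites gained ran from 92 to 151, lost from 24 to 62, in ASH1L-/- lists only from 27 to 52 (without ASH1L-/- no UV replicate 2) and in WT lists only from 15 to 31 (without WT no UV replicate 1), where fewer lists have to agree. Of 25 sites tested in this way, none changed direction and 15 kept their call in every setting. The deepest library had the most regions, and how far depth set the weakest regions was not tested.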
